A study of Mus musculus with 12 samples.

Results

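The set consists of 42 genes of the cell cycle and of DNA replication, followed through the colon mucosa of 12 mice that carried wild-type or Muc1 knockout bone marrow and were untreated or had undergone a carcinogen-and-colitis protocol. Members were found by the RefSeq symbol of each array probe. Of the 42 listed genes, 41 had a matched probe and 40 could be tested, among 23614 genes tested in all. Mki67, the proliferation antigen Ki-67, had no matched probe. The only probe of Aurka, a kinase of the spindle poles, carried spot-quality marks on 2 arrays of a group, which left it untested in the main fit. The list holds 10 replication genes (Mcm2, Mcm3, Mcm4, Mcm5, Mcm6, Mcm7, Rrm1, Rrm2, Pcna and Tyms), 22 mitosis genes, 7 genes of origin licensing and of the G1/S step, and Ccna2, Chek1 and Mki67 as others.

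All recipients were wild-type C57BL/6 mice. Donor marrow was C57BL/6 wild-type in the groups WT_untreated and WT_AOMDSS, and C57BL/6 Muc1 KO in KO_untreated and KO_AOMDSS, with 3 mice per group and 1 array per mouse. Muc1 encodes a membrane-bound mucin, and in such chimeras the colon epithelium and stroma are of the wild-type host. Treated mice had 12.5 mg/kg of azoxymethane (AOM), a colon carcinogen, by intraperitoneal injection. From 5 days later they had cycles of dextran sodium sulfate (DSS), which injures the colon lining, in the drinking water (2% for 4 days, then 14 days of water, both repeated, then 2.5% for 5 days). Tissue was taken 1 day after the last DSS. Ages are not given in the sources used here. Each sample was scraped mucosa of a whole colon, a mixture of epithelium, leukocytes and stroma, so more dividing cells and more RNA per dividing cell cannot be told apart here.

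A dividing cell first licenses its replication origins by loading the Mcm2 to Mcm7 helicase with the help of Cdc6 and Cdt1. It then enters S phase under cyclin E and E2F transcription factors, copies its DNA with nucleotides supplied by ribonucleotide reductase (Rrm1, Rrm2) and thymidylate synthase (Tyms), and divides under cyclin B and Cdk1. Genes of the first kind are transcribed mainly from late G1 and genes of the second mainly in G2 and M phase. In the colon, division is normally confined to the lower crypt, and crypts regenerate after injury.

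The level of a gene is the log2 of its background-corrected spot intensity minus the 75th percentile of that array, so 0 is the 75th percentile and a difference of 1 is a doubling. The 12 arrays lay on 3 slides. On slide 1 lay all 3 WT_untreated mice with KO_untreated 1. Treated and untreated mice met only on slide 2, where the other 2 KO_untreated mice lay beside mouse 3 of either treated group. The remaining 4 treated mice made up slide 3, which was scanned on the earlier of 2 days. The 75th percentile signal was 332 to 767.8 units on 11 arrays and 153.2 on WT_AOMDSS 3, the array that stood apart. The brighter Muc1 probe read between -3.80 and -0.99 over the 12 arrays, and because only blood-forming cells lacked the gene, it does not check the labels. All 12 tested markers of colonocytes and epithelium were well above background on every array. The 40 tested members were well above background on all 12 arrays with 1 exception, E2f1 on WT_AOMDSS 3.

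Promoters of 35 members were found in a RefSeq table (build GRCm38.p6) that gives 250 bases before and 50 after each transcription start, 32851 promoters in all. A member with several promoters was counted once. The search covered both strands for the E2F letters TTTCCCGC, TTTGGCGC, TTTCGCGC and TTTGCCGC, for the cell cycle homology region (TTTGAA or TTCGAA, an element described in genes of late cell cycle phases), and for CCAAT, the element bound by NF-Y. Some E2F words overlap each other on opposite strands. The E2F letters stood in 4 of 9 promoters of replication members (44.4%; Mcm3, Mcm5, Mcm6 and Mcm7), in 1 of 18 of mitosis members (5.56%; Cdk1) and in 2.26% of all promoters. The homology region letters stood in 13 of 18 promoters of mitosis members (72.2%), in 2 of 9 of replication members (22.2%; Mcm2 and Mcm7) and in 19.2% of all promoters. CCAAT stood in 8 of 9 replication promoters (88.9%), 15 of 18 mitosis promoters (83.3%) and 37.4% of all promoters. All 13 mitosis promoters with the homology region letters also held CCAAT, a combination found in 7.52% of all promoters. These matches describe the letters only. The 4 promoters shown are of the 3 members that passed the test with wild-type marrow and of Cdc20, which had the largest change averaged over both marrows. Capitals mark every match on either strand, and each sequence reads 5′ to 3′ along its gene.
Mcm3: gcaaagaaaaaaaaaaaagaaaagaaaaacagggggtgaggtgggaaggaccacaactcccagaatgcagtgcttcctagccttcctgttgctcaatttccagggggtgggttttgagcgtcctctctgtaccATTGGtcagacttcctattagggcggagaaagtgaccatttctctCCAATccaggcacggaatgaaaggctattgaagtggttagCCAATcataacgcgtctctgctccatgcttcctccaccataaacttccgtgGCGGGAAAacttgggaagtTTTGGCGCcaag
Rrm2: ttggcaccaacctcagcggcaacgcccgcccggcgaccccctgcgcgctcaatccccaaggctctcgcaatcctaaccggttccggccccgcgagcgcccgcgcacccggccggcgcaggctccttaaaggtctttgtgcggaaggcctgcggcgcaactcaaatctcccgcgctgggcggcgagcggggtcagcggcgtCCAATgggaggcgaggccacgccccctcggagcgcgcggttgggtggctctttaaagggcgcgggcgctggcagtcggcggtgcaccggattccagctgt
Kif23: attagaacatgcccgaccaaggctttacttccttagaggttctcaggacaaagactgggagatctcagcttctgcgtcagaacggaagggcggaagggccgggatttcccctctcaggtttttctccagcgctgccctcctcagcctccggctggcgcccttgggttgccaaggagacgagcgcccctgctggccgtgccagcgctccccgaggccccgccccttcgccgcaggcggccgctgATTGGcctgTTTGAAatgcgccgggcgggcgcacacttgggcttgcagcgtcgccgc
Cdc20: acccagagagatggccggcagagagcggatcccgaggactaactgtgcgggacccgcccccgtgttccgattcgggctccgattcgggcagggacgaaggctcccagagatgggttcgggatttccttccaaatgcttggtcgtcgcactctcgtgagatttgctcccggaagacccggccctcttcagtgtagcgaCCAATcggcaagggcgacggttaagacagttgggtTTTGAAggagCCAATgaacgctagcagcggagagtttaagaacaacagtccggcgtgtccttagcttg
The Mcm3 window (chr1:20820263-20820562 (minus strand)) holds 3 CCAAT matches and, after the transcription start, 2 E2F matches. The Rrm2 window (chr12:24708004-24708303 (plus strand)) holds a single CCAAT match. In the Kif23 window (chr9:61946750-61947049 (minus strand)) a CCAAT match on the opposite strand lies close before the homology region letters. In the Cdc20 window (chr4:118437294-118437593 (minus strand)) the homology region letters lie between 2 CCAAT matches. Of these 4 windows, E2F letters stand in that of the helicase gene and homology region letters in those of both mitosis genes.

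Before any group is compared, the members moved together from mouse to mouse. WT_untreated 2 had the lowest level of its group for 38 of 40 members, KO_untreated 3 for 32 and WT_AOMDSS 2 for 37. The mean over the members, with each gene set to 0 at its WT_untreated mean, was 0.32, -0.55 and 0.23 in WT_untreated 1 to 3 and 0.15, 0.22 and -0.40 in KO_untreated 1 to 3. In treated mice it was 1.03, 0.22 and 1.34 with wild-type marrow and 0.29, 0.90 and 0.34 with Muc1 KO marrow. The ranges overlap: WT_AOMDSS 2 lay below WT_untreated 1 and 3. KO_AOMDSS 1 lay below WT_untreated 1, but all KO_AOMDSS mice lay above all KO_untreated mice. The median of all genes, set to 0 the same way, was 0.11, 0.01 and -0.12 in WT_untreated 1 to 3. It was 0.06, -0.33 and -0.26 in KO_untreated 1 to 3 and -0.25, -0.42 and -0.16 in KO_AOMDSS 1 to 3. In WT_AOMDSS 1 to 3 it was -0.32, -0.42 and 0.006, so WT_AOMDSS 3 was the highest of its group over all genes too. The pooled SD between replicates of the mean over the members was 0.44. That spread was close in size to the median change with Muc1 KO marrow reported below, 0.48. The median change was 0.93 with wild-type marrow and 0.71 averaged. WT_untreated 2 and WT_AOMDSS 2 also had the highest mean of the 8 stroma and vessel markers in their groups, 0.99 and 2.34, whereas KO_untreated 3, at -0.50, lay below KO_untreated 1, at -0.24. Their part in the low members was not tested.

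**Figure D1:**
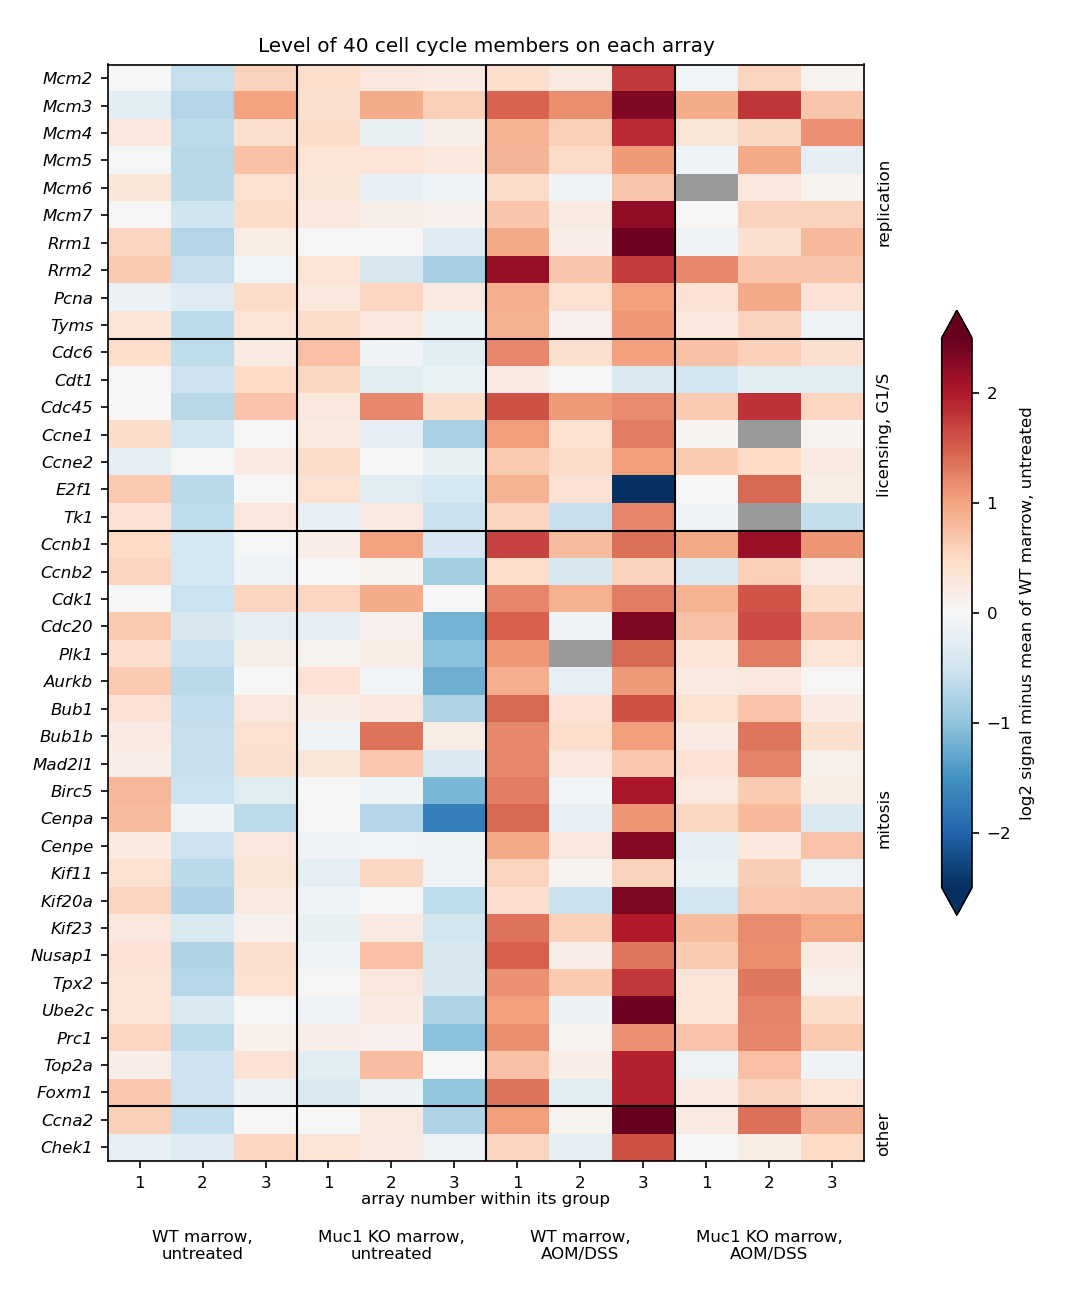
Level of each of the 40 tested members (rows) on each of the 12 arrays (columns, numbered within group), as log2 signal minus the mean of the 3 WT_untreated arrays. Grey cells are spots left out for quality, and the colour scale ends at 2.5 on either side. Whole columns are blue (lower) or red (higher) together: WT_untreated 2 is the lowest of its group for 38 of 40 members, and WT_AOMDSS 3 is the highest of its group for 29. The median difference of WT_AOMDSS 3 from the other WT_AOMDSS arrays is 0.58 over members and 0.57 over all genes.

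With wild-type marrow, 3 members rose in AOM/DSS mucosa, and most others leaned the same way without passing the test. The change was positive for 38 of 40 members (95%), against 39.7% of all genes, and its median was 0.93 against -0.24 over all genes. Under normexp background correction, another way to remove background, those medians were 0.66 and 0.40. Of the 40 members, 3 rose past the threshold (limma, Benjamini-Hochberg adjusted p under 0.05 over all genes) and 0 fell: Mcm3, Rrm2 and Kif23. That is 7.5% of the members called higher, against 3.57% of all genes called higher, 10.1% called lower and 13.7% called in either direction. The number called was 0 without WT_untreated 1, WT_untreated 2 or WT_AOMDSS 1. Those fits called 0.936%, 1.02% and 0.822% of all genes higher. The number was 1 without KO_AOMDSS 1 (Kif23) and 2 without KO_untreated 2 (Kif23 and Mcm3), with 2.44% and 2.55% of all genes called higher. Those 2 arrays enter this comparison only through the shared variance. Without WT_AOMDSS 2 it was 6, with 2.52% of all genes called higher. So the calls, among all genes as among members, depend on single mice. The members' median stayed between 0.61 and 1.26 over the 12 fits that each left out 1 array. The measured values did not overlap, with treated mice higher, for 12 members (30%) against 11% of all genes. An unadjusted p under 0.05 was reached by 19 members (47.5%) against 33% of all genes.

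Among the replication genes, Mcm3, a subunit of the helicase ring, read -1.13, -1.60 and 0.13 in WT_untreated 1 to 3 and 0.60, 0.29 and 1.46 in WT_AOMDSS 1 to 3. Every treated mouse lay above every untreated mouse, and WT_untreated 3 came closest to the treated group. Mcm3 rose by 1.65 ± 0.46 (log2 ± SE, n = 3 and 3; 3.13-fold; limma adjusted p = 0.0358). Rrm2, the regulated subunit of ribonucleotide reductase, read 0.76, -0.46 and 0.03 untreated and 2.30, 0.80 and 1.86 treated. The treated group was again wholly higher, though WT_AOMDSS 2 was only just above WT_untreated 1. Rrm2 rose by 1.54 ± 0.43 (2.91-fold; limma adjusted p = 0.0365). The large subunit Rrm1 had a change of 1.18 ± 0.49 that did not pass (limma adjusted p = 0.111). The helicase subunit Mcm4 read 2.99, 2.09 and 3.13 untreated and 3.60, 3.34 and 4.59 treated, without overlap. Its change of 1.11 ± 0.37 missed the threshold (limma adjusted p = 0.0632). The remaining members of the replication list, namely Mcm2, Mcm5, Mcm6, Mcm7, the sliding clamp Pcna and Tyms, had changes of 0.36 (Mcm6) to 1.04 (Mcm7), with adjusted p of 0.0717 (Pcna) or more. All 10 replication changes were positive, with a median of 0.92; under normexp correction the median was 0.29, below the 0.40 of all genes.

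Among the mitosis genes, Kif23, a motor of the central spindle needed for cytokinesis, read -0.28, -0.94 and -0.45 in WT_untreated 1 to 3 and 0.80, 0.05 and 1.42 in WT_AOMDSS 1 to 3. No treated mouse was as low as any untreated mouse. Kif23 rose by 1.31 ± 0.35 (2.48-fold; limma adjusted p = 0.0327), the smallest adjusted p of the set in this comparison. Cdk1, the mitotic kinase, read -0.72, -1.25 and -0.15 untreated and 0.52, 0.18 and 0.58 treated. Its groups did not overlap, and its change of 1.13 ± 0.37 just missed the threshold (limma adjusted p = 0.0586). Ccnb1, the cyclin that activates Cdk1, read -0.88, -1.82 and -1.42 untreated and 0.31, -0.58 and 0.01 treated, again without overlap, with a change of 1.29 ± 0.44 (limma adjusted p = 0.0673). Other mitosis genes had treated mice wholly above untreated mice without passing the test, namely Plk1, a kinase of mitotic entry and exit, Bub1 and Bub1b of the spindle checkpoint, and the spindle assembly factor Tpx2. Their changes were 1.25, 1.13, 0.90 and 1.19. Plk1 rests on 2 treated mice: its spot on WT_AOMDSS 2, left out for quality, read 1.95, below the 2.18 of WT_untreated 1, so with it the groups would overlap. Ccnb2, the other cyclin B, had the smallest change of the mitosis list, 0.20 ± 0.37. All 21 tested mitosis changes were positive, with a median of 1.00. Of the 21, 1 was called (4.76%, close to the 3.57% of all genes called higher). Under normexp correction the mitosis median was 0.78, against 0.40 over all genes.

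The genes of licensing and the G1/S step were more mixed. Cdc45, which activates the loaded helicase, read -3.05, -3.73 and -2.32 untreated and -1.43, -1.97 and -1.85 treated. Its groups did not overlap, and its change was 1.28 ± 0.48 (limma adjusted p = 0.0841). Cyclin E2 (Ccne2) also had groups without overlap, with 0.73 ± 0.34 (limma adjusted p = 0.157), and cyclin E1 (Ccne1) had 0.91 ± 0.34 (limma adjusted p = 0.0895). Cdt1, which loads the helicase at origins, had a change of -0.06 ± 0.29, whereas its partner Cdc6 had 0.87 ± 0.42. Thymidine kinase (Tk1) had 0.40 ± 0.44. The change of the transcription factor gene E2f1 was -1.07 ± 1.04, which rests on WT_AOMDSS 3: its probe read -0.63 and -1.13 on WT_AOMDSS 1 and 2 and -5.90, not well above background, on WT_AOMDSS 3. Without that array it was 0.61, and its second probe gave 0.92. Ccna2, the cyclin of S and G2 phase, and the checkpoint kinase gene Chek1 had 1.24 ± 0.54 and 0.64 ± 0.46. None of the 7 licensing genes, nor Ccna2 or Chek1, passed the test.

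With Muc1 KO marrow the members leaned the same way by less, and none passed the test. The change was positive for 36 of 40 members (90%) against 43% of all genes, and the median was 0.48 against -0.11 over all genes. Without single arrays it ran from 0.25 (without KO_untreated 3) to 0.61 (without KO_untreated 2). limma called 0 members, against 3.15% of all genes called, 1.85% higher and 1.3% lower. An unadjusted p under 0.05 was reached by 6 members (15%), close to the 14.5% of all genes. Treated mice lay wholly above untreated mice for 8 members (20%) against 11.1% of all genes: Rrm2, Cdc20, Plk1, Birc5, Kif23, Ube2c, Prc1 and Foxm1. Of these 8, only Rrm2 belongs to the replication list.

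Kif23 had the highest statistic in this comparison too, at -0.74, -0.32 and -1.01 in KO_untreated 1 to 3 and 0.24, 0.63 and 0.41 in KO_AOMDSS 1 to 3. The 2 groups did not overlap, but its change of 1.12 ± 0.35 did not pass (2.17-fold; limma adjusted p = 0.129). Without WT_AOMDSS 3, which enters this comparison only through the shared variance, Kif23 was the single member called (limma adjusted p = 0.0454). Of all genes, 2.85% were called higher in that fit. Cdc20, the activator of the anaphase-promoting complex, read 2.61, 2.97 and 1.68 untreated and 3.60, 4.49 and 3.64 treated. Its change of 1.49 ± 0.54 was the largest of the set with this marrow (limma adjusted p = 0.198). Prc1, which bundles the central spindle on which Kif23 works, read 2.58, 2.52 and 1.38 untreated and 3.14, 3.63 and 3.06 treated, a change of 1.12 ± 0.41 (limma adjusted p = 0.205). Rrm2 read 0.45, -0.29 and -0.72 untreated and 1.31, 0.81 and 0.81 treated, with 1.16 ± 0.43 (limma adjusted p = 0.212). KO_untreated 3 was the low mouse in Cdc20, Prc1 and Rrm2 alike. The lowest statistics were those of Cdt1 (-0.35 ± 0.29), Tk1 (-0.16 ± 0.49) and Mcm2 (-0.11 ± 0.40). Mcm5 was the other member with a negative change, -0.10 ± 0.37.

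**Figure D2:**
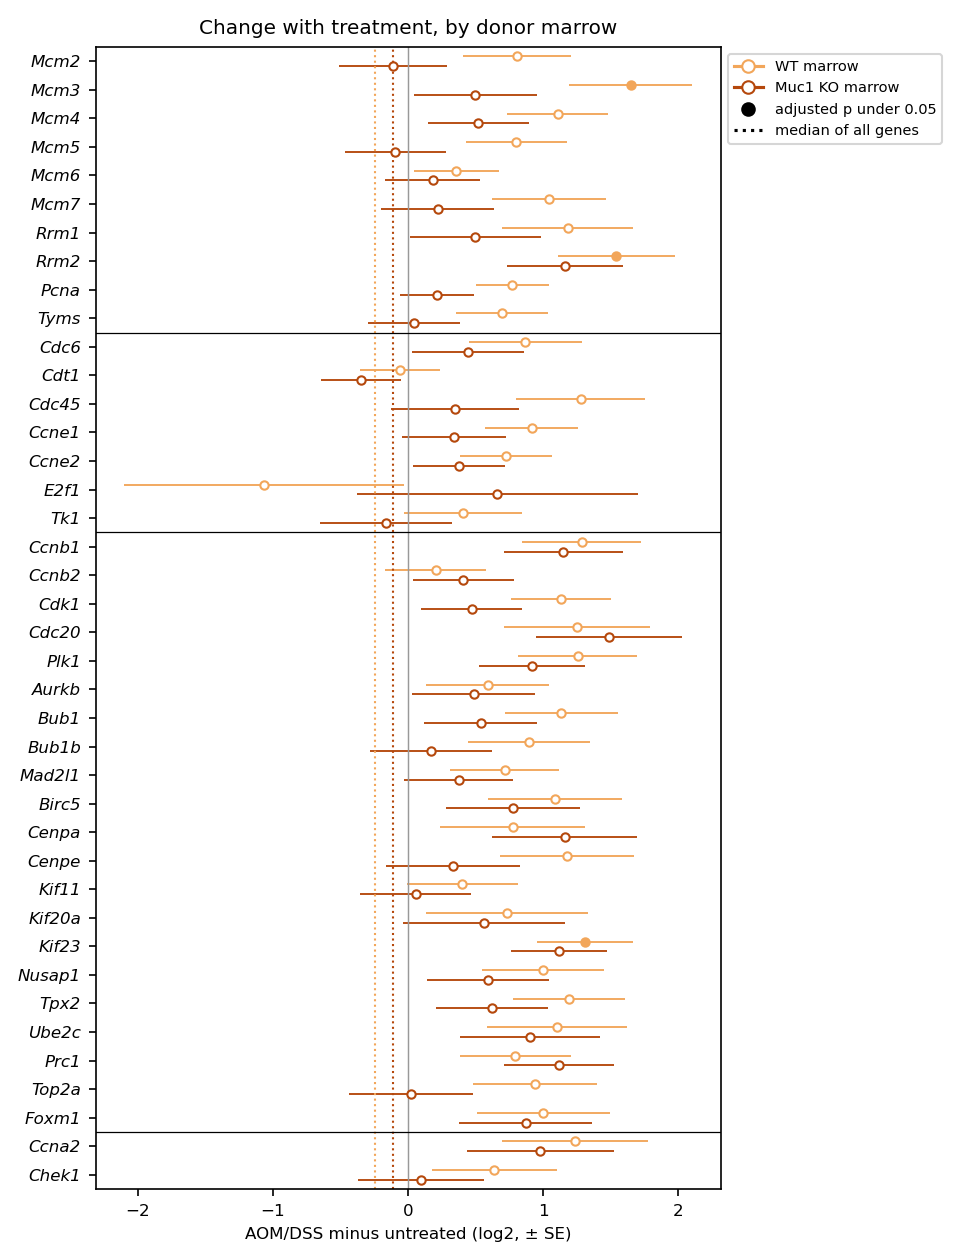
Change of each member from untreated to AOM/DSS mucosa (log2, ± SE, 3 mice per group, but 2 treated mice for Plk1 with wild-type marrow and for Mcm6, Ccne1 and Tk1 with Muc1 KO marrow); filled points have a limma adjusted p under 0.05, and dotted lines mark the median of all genes (-0.24 and -0.11). Mcm3, Rrm2 and Kif23 are the filled points, all with wild-type marrow, and most replication genes lie nearer 0 with Muc1 KO marrow than with wild-type marrow.

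Averaged over both marrows, which sets 6 treated against 6 untreated mice, 10 members rose and 0 fell. That is 25% of the members called higher, against 7.52% of all genes called higher and 13.4% called lower. In either direction 20.9% of all genes were called. The median over members was 0.71 against -0.19 over all genes, and an unadjusted p under 0.05 was reached by 23 members (57.5%) against 38.1% of all genes. The 10 were Mcm3, Mcm4 and Rrm2 of the replication list and Ccnb1, Cdk1, Cdc20, Plk1, Kif23, Tpx2 and Prc1 of the mitosis list, with 0 of the 7 licensing genes. Kif23 had the smallest adjusted p (0.0069), at 1.21 ± 0.25 or 2.32-fold, followed by Rrm2 (0.0105) at 1.35 ± 0.30. Cdc20 had the largest change, 1.37 ± 0.38 (2.58-fold; limma adjusted p = 0.0261). Ccnb1 rose by 1.22 ± 0.31 and Plk1 by 1.09 ± 0.30. Mcm3 rose by 1.07 ± 0.32, Prc1 by 0.96 ± 0.29 and Tpx2 by 0.91 ± 0.29. Mcm4 and Cdk1 were nearest the threshold, at 0.81 ± 0.26 (limma adjusted p = 0.0455) and 0.80 ± 0.26 (0.0472). Just outside it were Ccna2 (1.11 ± 0.38, limma adjusted p = 0.0557), Bub1 (0.84 ± 0.30, 0.0603) and Ube2c, the ubiquitin-conjugating enzyme of the anaphase-promoting complex (1.00 ± 0.37, 0.0667). At the low end were Cdt1 (-0.20 ± 0.21), E2f1 (-0.20 ± 0.73) and Tk1 (0.12 ± 0.33). Leaving out single arrays moved the count from 2 (without WT_untreated 2 or WT_AOMDSS 1) to 17 (without WT_AOMDSS 2). Of all genes, 4.98%, 4.99% and 7.63% were called higher in these fits. The count of members was 3 without KO_AOMDSS 2, 4 without KO_untreated 3, 5 without KO_AOMDSS 1, and 6 without WT_untreated 1 or KO_untreated 1. In the same order, 6.42%, 5.48%, 4.99%, 5.32% and 6.09% of all genes were called higher. Kif23 and Rrm2 stayed called in each of those 12 fits.

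In the main setting, the replication and mitosis lists had like medians with wild-type marrow and medians further apart with Muc1 KO marrow. With wild-type marrow their medians were close, 0.92 and 1.00. With Muc1 KO marrow they were 0.22 and 0.59, and 8 of 10 replication changes were positive against 21 of 21 for mitosis. Rrm2, at 1.16, was the exception among the replication genes with Muc1 KO marrow: the next highest, Mcm4, was at 0.52. Per array, the mean of the replication members minus that of the mitosis members ranged from -0.29 in KO_AOMDSS 2 to 0.65 in KO_untreated 3, with a pooled SD between replicates of 0.28. The 4 groups overlapped in this difference, so replication and mitosis were not separated beyond the spread between mice. In KO_untreated 3 the mitosis genes were low (mean -0.64) and the replication genes were not (0.01). Under normexp correction the replication median minus the mitosis median was -0.48 with wild-type marrow, against -0.08 in the main setting. The normexp medians of replication and mitosis were 0.29 and 0.78 with wild-type marrow. With Muc1 KO marrow they were 0.15 and 0.54, so there the lists were no further apart than with wild-type marrow. No test was run on these list means.

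**Figure D3:**
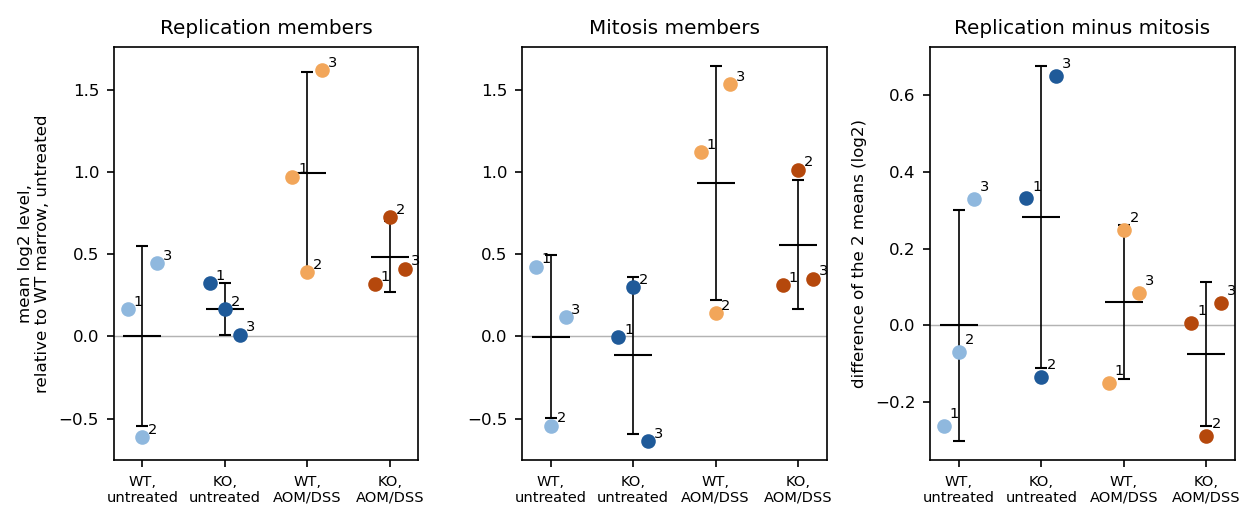
Mean log2 level per array of the 10 replication members, of the 21 tested mitosis members, and the difference of these means, each set to 0 at the WT_untreated mean; numbers are the mice of each group, horizontal marks the group means and vertical bars the SD (n = 3). In both lists WT_AOMDSS 2 lies with the untreated mice, and in the difference all 4 groups overlap.

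Between the marrows themselves, no member passed the test. In treated mice the change from wild-type to Muc1 KO marrow was negative for 37 of 40 members, with a median of -0.42 against -0.02 over all genes. Under normexp correction those medians were -0.23 and -0.43, with the members above all genes. limma called 0 of 40 members, and 0% of all genes; at an unadjusted p under 0.05 there were 1 member and 189 genes. That member was Ccne1, whose level was 2.43, 1.77 and 2.69 in mice 1 to 3 of WT_AOMDSS. The 2 KO_AOMDSS mice with a usable spot, 1 and 3, both read 1.45. Its left-out spot on KO_AOMDSS 2 read 2.20, with which the groups would overlap. The difference was -0.84 ± 0.39 (limma adjusted p = 1). With that spot left out, it was the only member whose groups did not overlap in this comparison, where 1.38% of all genes were apart in that direction and 1.72% in the other. Cenpe (-0.93 ± 0.50) and Bub1 (-0.70 ± 0.42) followed, and the highest statistics were those of E2f1 (1.61 ± 1.04), Ccnb1 (0.12 ± 0.44) and Prc1 (0.07 ± 0.41). The E2f1 value rests on the WT_AOMDSS 3 spot that was not well above background: without that array it was -0.064, and with its other probe -0.33. The size of this lean changed with WT_AOMDSS 3. The median was -1.11 within slide 2, which set KO_AOMDSS 3 against that array alone, and -0.08 within slide 3, with 2 mice on either side. Without WT_AOMDSS 3 it was -0.17.

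In untreated mice 19 members had a positive and 21 a negative difference between the marrows, with a median of -0.02 against -0.18 over all genes. This split changed with single mice: 8 were positive without WT_untreated 2 (median -0.34), and 32 without WT_untreated 1 (0.13) or without KO_untreated 3 (0.14). limma called 0 members and 0% of all genes; 0 members and 2902 genes had an unadjusted p under 0.05. For no member were the groups apart, against 6.18% of all genes with Muc1 KO marrow wholly higher and 6.57% wholly lower. The lowest statistics were those of Cenpa, the histone of centromeres (-0.83 ± 0.54), Foxm1, a transcription factor of G2/M genes (-0.50 ± 0.49), and Birc5, a chromosomal passenger protein (-0.42 ± 0.50). The highest were those of Mcm3 (0.64 ± 0.46), Cdc45 (0.65 ± 0.48) and Cdk1 (0.49 ± 0.37). Within slide 1, which held KO_untreated 1 beside the 3 WT_untreated mice, the median was 0.17.

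The test of whether treatment acted differently with the 2 marrows, the interaction, called 0 members and 0% of all genes, with 0 members and 799 genes at an unadjusted p under 0.05. The smaller change with Muc1 KO marrow was therefore not shown to differ from that with wild-type marrow for any member. Its lowest statistics were those of 3 helicase subunits, Mcm3 (-1.15 ± 0.65; limma adjusted p = 0.902), Mcm5 (-0.90 ± 0.53) and Mcm2 (-0.92 ± 0.56). E2f1 (1.73 ± 1.47), Prc1 (0.32 ± 0.58) and Cenpa (0.39 ± 0.76) were highest. Without WT_AOMDSS 3 the E2f1 value was 0.05, and with its other probe -0.50. All 10 replication members were negative in the interaction, with a median of -0.67 against 0.18 over all genes. Without WT_AOMDSS 3 that replication median was -0.35, and without WT_untreated 2 it was -0.36. Under normexp correction it was -0.31, against -0.20 over all genes and -0.17 over all members.

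Slide and treatment were nearly confounded, and the calls did not hold with slide as a block. No slide held both wild-type marrow groups. With slide as a block, limma called 0 members with either marrow and 1 on average, Mcm4 (1.76 ± 0.39, limma adjusted p = 0.0261). Of all genes, that fit called 0.542% with wild-type marrow, 7.29% with Muc1 KO marrow and 6.2% on average. In the main fit these shares were 13.7%, 3.15% and 20.9%. The direction stayed: the medians of the members were 1.46 with wild-type and 0.76 with Muc1 KO marrow, while those of all genes moved to 0.47 and 0.44. The wild-type value is indirect, since slide 1 is tied to the other slides only through the KO_untreated mice. The SE of Mcm3 with wild-type marrow was 0.90 with the block, against 0.46 in the main fit. Only the Muc1 KO marrow comparison could be made within a slide, slide 2, as KO_AOMDSS 3 against KO_untreated 2 and 3. There the change was positive for 27 of 40 members, with a median of 0.50 against 0.29 over all genes and 0 members called. Within slide 2 the mitosis median was 0.73 and the replication median 0.12, the latter below all genes. Mcm3 and Cdk1 were at -0.06 and -0.01 there, while Kif23 was at 1.08, Cdc20 at 1.31, Rrm2 at 1.31 and Mcm4 at 1.17. The dim array also mattered for size. Without WT_AOMDSS 3 the median change with wild-type marrow was 0.61 instead of 0.93, and limma still called Mcm3, Rrm2 and Kif23. Of all genes, 6.09% were called higher in that fit.

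**Figure D4:**
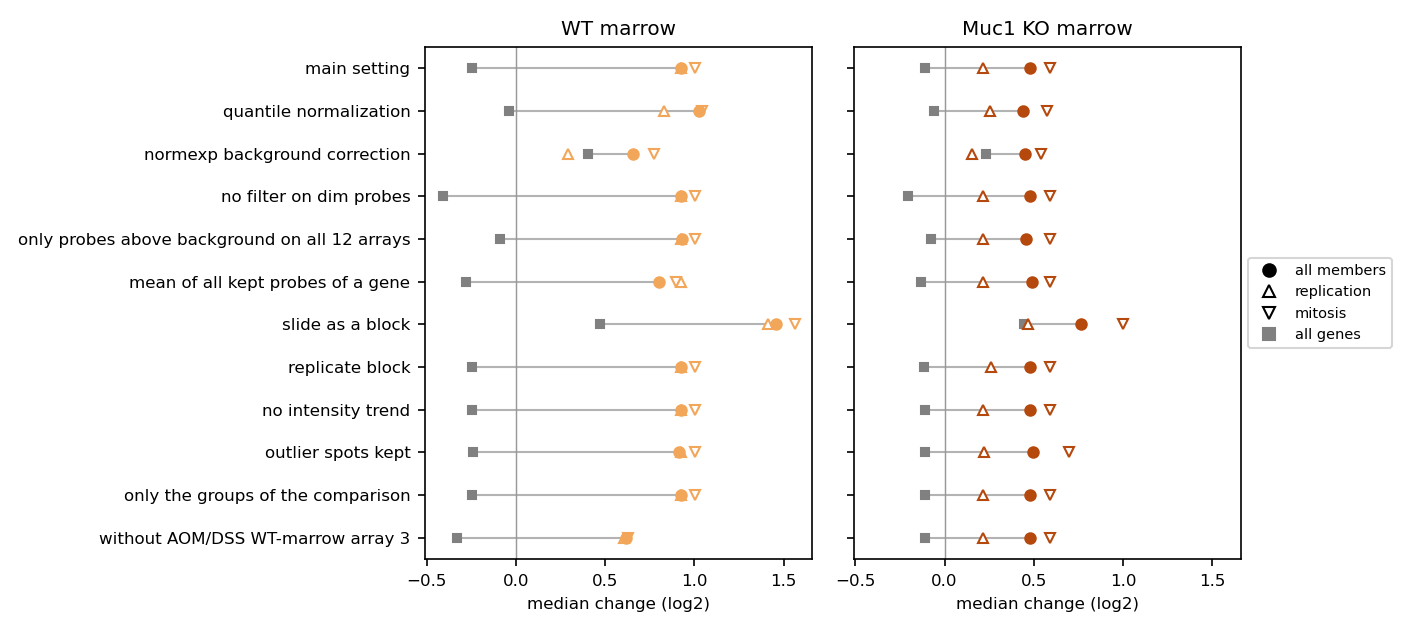
Median change from untreated to AOM/DSS mucosa (log2) over all members, replication members, mitosis members and all genes, under the main setting and each alternative, for wild-type and Muc1 KO marrow. The members lie to the right of all genes in every row; the distance is 1.17 in the main setting and 0.26 under normexp correction with wild-type marrow, and there the replication median (0.29) is below that of all genes (0.40).

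Several members had more than 1 probe, and for 5 of them the probes disagreed in sign. The second probe of Cdk1 had a change of -2.72 with wild-type marrow, against 1.13 from the brighter one, and was well above background on 10 of 12 arrays. Averaged over both probes, the change of Cdk1 over both marrows turned to -0.23. The second Top2a probe, for the topoisomerase that untangles chromosomes, gave -0.20 and -0.60 with the 2 marrows against 0.94 and 0.02 from the brighter probe. Another Cenpe probe gave -0.02 against 1.18, the second Tyms probe -0.07 against 0.04 with Muc1 KO marrow, and E2f1 differed as described. Probes agreed closely for Kif23 (1.31 and 1.31 with wild-type marrow, 1.12 and 1.19 with Muc1 KO marrow) and for the 3 probes of Ccnb1 (1.26 to 1.34 with wild-type marrow). Of the called members named here, Kif23 and Ccnb1 thus had further probes with a like change. Cdk1 had a second probe with an opposite change with wild-type marrow.

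The spots left out concern 2 further mitosis genes. With them kept, Aurka read 2.98, 1.65 and 1.99 in WT_untreated 1 to 3 and 3.80, 2.40 and 4.82 in WT_AOMDSS 1 to 3. It read 2.11, 2.26 and 1.09 in KO_untreated 1 to 3 and 3.04, 3.47 and 2.93 in KO_AOMDSS 1 to 3. Treated mice were wholly above untreated mice with Muc1 KO marrow, while WT_AOMDSS 2 overlapped with WT_untreated 1. Averaged over both marrows, Aurka then rose by 1.40 ± 0.38 (limma adjusted p = 0.0232) and Cenpe, a kinetochore motor, by 1.07 ± 0.32 (0.0358) through its brightest probe, which made 12 called members. Of all genes, 7.56% were called higher in that fit. In the authors' deposited table of 2506 probes, 5 probes of 4 members appear. The treated minus untreated differences of group means in the authors' deposited table were 1.565 and 1.173 for Rrm2 (wild-type and Muc1 KO marrow), 1.273 and 1.502 for Cdc20, 1.493 and 1.343 for Aurka, and 1.334 and 1.129 for the first of 2 Kif23 probes.

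Genes of the same pathways outside the set were counted for comparison. Of 39 tested further replication factors, 5 (12.8%, against 3.57% of all genes) rose with wild-type marrow and 0 fell, with a median of 0.68. They included Uhrf1, which maintains DNA methylation at the fork (1.60 ± 0.36, limma adjusted p = 0.0212), Fen1, the flap endonuclease (1.39 ± 0.36, 0.0311), the origin recognition subunit Orc6 (1.11 ± 0.31, 0.038) and Dut, which keeps uracil out of DNA (1.22 ± 0.35, 0.0388). With Muc1 KO marrow 0 of 39 were called, against 3.15% of all genes. The median was 0.07, from Uhrf1 at the highest statistic (0.79 ± 0.32) to Rpa3 at the lowest (-0.86 ± 0.27). Averaged over both marrows 7 rose, led by Uhrf1 (1.20 ± 0.24, limma adjusted p = 0.00734) and the initiation factor Mcm10 (1.38 ± 0.35, 0.0173). Rpa3, a subunit of the single-strand binding complex, was the 1 that fell (-0.58 ± 0.19, limma adjusted p = 0.0487). That is 17.9% called higher and 2.56% lower, against 7.52% and 13.4% of all genes. Of 39 tested further mitosis genes, 6 rose with wild-type marrow (15.4%, against 3.57% of all genes). With Muc1 KO marrow 1 rose (2.56%, close to the 1.85% of all genes). The medians with the 2 marrows were 0.87 and 0.42. Cep55, which acts at abscission, the last step of cytokinesis, rose with both, by 2.14 ± 0.43 (limma adjusted p = 0.0135) and 1.78 ± 0.43 (0.0442). Ect2, which starts the cytokinetic furrow, rose by 1.26 ± 0.30 with wild-type marrow (0.0233). Spc25 of the kinetochore and Anln, a scaffold of the contractile ring, rose by 1.42 ± 0.38 and 1.66 ± 0.45 with that marrow. With slide as a block, 0 genes of both lists were called with either marrow, against 0.542% (wild-type) and 7.29% (Muc1 KO) of all genes.

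Regulators upstream of the cycle changed in both directions. Of 11 tested G1 regulators, 3 rose with wild-type marrow: the growth regulator Myc (1.95 ± 0.32, limma adjusted p = 0.00571), the transcription factor E2f2 (1.84 ± 0.40, 0.0176) and the D-type cyclin Ccnd2 (1.08 ± 0.26, 0.0247). The phosphatase Cdc25a fell (-2.76 ± 0.82, 0.044). Of the list, 27.3% were thus called higher and 9.09% lower, against 3.57% and 10.1% of all genes. With slide as a block 0 of the 11 were called with wild-type marrow, against 0.542% of all genes. E2f2 alone of these was called with Muc1 KO marrow (2.62 ± 0.40, limma adjusted p = 0.00332), where Myc had 0.96 ± 0.32 (0.15). Of 20 tested inhibitors and quiescence genes, 4 fell (20%, against 10.1% of all genes) and 0 rose with wild-type marrow. They were the cyclin-dependent kinase inhibitors Cdkn1b (-2.24 ± 0.53, limma adjusted p = 0.0232), Cdkn1c (-1.67 ± 0.40, 0.0237) and Cdkn1a (-1.33 ± 0.37, 0.0367), and Ccng2, a cyclin raised in resting cells (-1.40 ± 0.40, 0.0388). With Muc1 KO marrow 0 of 20 were called, against 3.15% of all genes. Cdkn1a had -1.31 ± 0.37 there (limma adjusted p = 0.0846), and Wee1 had the lowest statistic (-1.83 ± 0.51). With slide as a block 0 of the 20 were called with wild-type marrow, against 0.542% of all genes. Averaged over both marrows 6 fell, among them Wee1, the kinase that restrains Cdk1 (-1.44 ± 0.36, limma adjusted p = 0.0165), and 1 rose, the repressor E2f7 (1.06 ± 0.34, 0.0433). That is 30% called lower and 5% higher, against 13.4% and 7.52% of all genes. On average, 2 of the 20 were called with slide as a block, where 6.2% of all genes were. The median of the inhibitor list was -0.13 on average, close to the -0.19 of all genes.

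The cell makeup of the scrapings moved with treatment as well. The mean of the 12 leukocyte markers, relative to WT_untreated, was -1.05 to 0.65 in untreated and 1.62 to 2.48 in treated mice. With either marrow 7 of 12 rose, led by the neutrophil genes S100a8 and S100a9. Of all genes, 3.57% were called higher with wild-type and 1.85% with Muc1 KO marrow. The marker changes ran from -2.04 to 9.57 with wild-type marrow, 3 of 12 negative. With Muc1 KO marrow they ran from -0.63 to 8.31, 2 of 12 negative. A fit with slide as a block called 1 of the 12 with wild-type and 7 with Muc1 KO marrow, against 0.542% and 7.29% of all genes. Of the 12, 10 were well above background on every array, Csf3r on 6 and S100a8 on 8. The mean of the 12 tested epithelial markers was -0.08 to 0.09 in untreated mice and -1.06 to -0.72 in the treated mice of slide 3, but -0.09 and 0.06 in those of slide 2. Of the epithelial markers, the absorptive colonocyte transporter Slc26a3 fell with both marrows (-2.38 ± 0.37, limma adjusted p = 0.00514; -3.04 ± 0.37, 0.000888), and Lgr5, a marker of crypt stem cells, had -0.55 ± 0.74 and -1.84 ± 0.74 without passing. Of the 12 epithelial markers, 0 were called with wild-type and 1 with Muc1 KO marrow when slide was a block. The mean of the 8 stroma and vessel markers was -0.68 to 0.99 in untreated and -0.26 to 2.34 in treated mice, with Des, Pdgfra, Pecam1 and Cdh5 not well above background on every array. Their part in the change of the cell cycle genes was not tested.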

How the data were processed

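The 12 samples are single-colour Agilent arrays of design 014868, 1 per mouse. Per the labels' protocols, total RNA came from RNeasy columns and carried a single dye, Cy3. Intensity values were deposited as Feature Extraction 10.7.3.1 output with background already corrected, per the file headers. A separate log2 table of 2506 probes was deposited by the authors. How it was centred is not stated, and its differences of group means correlated with those computed here across probes (r = 0.998 and 1 for the treatment effects).

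From the processed intensities, control spots and spots marked as outliers were left out, and log2 values were taken minus each array's 75th percentile. Of 41174 probes, 30219 were well above background on all 3 arrays of a group. Each gene was represented by its brightest probe with at least 2 values per group, which gave 23614 genes, 14563 of them with a RefSeq symbol (24375 probes matched a symbol of GRCm38.p6, among them 55 probes of the members). limma 3.58.1 in R 4.3.3 fitted 4 group means (lmFit, eBayes with an intensity trend), with 6 contrasts and Benjamini-Hochberg adjustment over all 23614 genes. Treatment was compared within each marrow and averaged over both, and marrows within untreated and treated mice and as an interaction. The test was checked on simulated data with independent noise per gene and array and no slide effect. That check therefore does not cover slide differences or genes that move together from mouse to mouse. Precision is limited by 3 mice per group. The p-values of the main fit measure the spread between arrays of a group. In every group but WT_untreated that spread holds differences between slides as well as between mice.

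Members and gene lists were chosen with earlier results of these data known. All called members were named, with the 3 highest and 3 lowest statistics among those not called, and up to 4 called genes per direction from other lists. Alternatives were quantile normalization, normexp (offset 50, on the median spot signal, in place of the mean signal), other filters, the mean over probes, slide or replicate number as a block, no intensity trend, fits of the compared groups alone, and each array left out. Keeping outlier spots was added after seeing the data.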

Additional observations from a re-analysis of the deposited data

How the results depend on the processing

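In the treatment comparisons the members' median stayed positive and above that of all genes under every alternative run; the numbers of called members did not hold. With wild-type marrow, 3 members were called in the main setting, 10 under quantile normalization and 1 without the intensity trend. It was 0 with slide as a block, 0 when only the compared groups were fitted, and 0 to 6 when single arrays were left out. Of all genes, 13.7% were called in the main setting, 18.4% under quantile normalization and 12.2% without the trend. That share was 0.542% with slide as a block and 5.59% with the compared groups alone. With Muc1 KO marrow the count was 0, 1 in the fit of the compared groups (Cdc20) and 0 to 1 without single arrays. Of all genes, 4.09% were called in that fit of the compared groups, and 5.28% without WT_AOMDSS 3. Averaged, the count of members was 10, 16 under quantile normalization, 6 under normexp, 5 without the trend, 1 with slide as a block and 2 to 17 without single arrays. The averaged share of all genes called was 20.9% in the main setting, 26.1% under quantile normalization and 9.91% under normexp. It was 19% without the trend and 6.2% with slide as a block. Among treated mice, 1 member (E2f1) passed within slide 2, where 1 array was set against 1 and its spot on WT_AOMDSS 3 was not well above background; within slide 3 its difference was 0.12. The replication minus mitosis difference with wild-type marrow was -0.48 under normexp. Of all genes called with wild-type marrow, 26.1% were higher in the main setting, 39.9% under quantile normalization, 36.7% under normexp and 86.7% with slide as a block.

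Among the named genes, signs changed in comparisons where the gene was not called, and for Cdk1 also in the averaged comparison, where it was called. With the mean of all probes Cdk1 was -0.80 with wild-type marrow, -0.23 averaged and -1.34 between marrows in untreated mice, and Ccnb1 was -0.024 between marrows in treated mice. Under normexp, E2f1 was 0.58 with wild-type marrow, 0.63 averaged and -0.017 in treated mice, Ccnb2 was -0.52 with wild-type marrow and Tk1 -0.20 averaged. With probes above background on all arrays, E2f1 was 0.92, 0.67 and -0.33 in the same comparisons and -0.50 in the interaction, and with the mean of probes 0.23 averaged. With slide as a block, Cdt1 was 0.56 with wild-type marrow and 0.17 averaged, Tk1 0.072 and Mcm2 0.37 with Muc1 KO marrow, Cenpa -0.40 and Prc1 -0.10 in the interaction, and Birc5 4e-04 in untreated mice, as within slide 1. Within slide 2, Prc1 was -0.50 and Ccnb1 -0.28 in treated mice. With outlier spots kept, Tk1 was 0.18 with Muc1 KO marrow.

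Without single arrays the ranges were, with wild-type marrow, -2.03 to 0.61 for E2f1, -0.32 to 0.19 for Cdt1 and -0.013 to 0.51 for Ccnb2. With Muc1 KO marrow they were -0.41 to 0.088 for Tk1 and -0.29 to 0.016 for Mcm2. Averaged, they were -0.68 to 0.64 for E2f1 and -0.084 to 0.36 for Tk1. In treated mice they were -0.29 to 0.25 for Prc1, -0.25 to 0.34 for Ccnb1 and -0.064 to 2.57 for E2f1, and in the interaction -0.11 to 0.78 for Cenpa and -0.070 to 0.65 for Prc1. The cause of these changes was not tested, other than the fewer samples or probes that a setting uses.

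With replicate number as a replicate block, 4 members were called with wild-type marrow (Mcm4 was added), 0 with Muc1 KO marrow and 8 averaged, with medians of 0.93, 0.48 and 0.71. Of all genes, 9.79%, 3.01% and 19% were called with that block, and 3.06%, 1.75% and 7.43% were called higher. Same-numbered samples did not deviate together (r from -0.385 to 0.514 over 18 pairs, median -0.1175, against a median of 0.114 over 36 pairs of other numbers), so the numbers were not taken to pair mice. Within a slide, neither the wild-type marrow treatment effect nor the averaged effect or the interaction can be computed, since no slide holds the groups they need. Arrays of 3 mice per group limit precision, and WT_AOMDSS 3 was the dimmest array, at 153.2 units for the 75th percentile.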
